A study of Mus musculus with 7 samples.

Results

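The transcriptome of scraped colon epithelium on day 7 after PhIP and DSS was set beside that on day 3, using 2 of the 7 libraries of the study. The libraries were chosen by their sample labels: the PhIP/DSS library of day 7 and the PhIP/DSS library of day 3. All animals were female hCYP1A mice on the C57BL/6 background, aged 6 weeks, and hCYP1A denotes a line that carries human CYP1A genes. Mice of both libraries received 2 doses of 100 mg/kg PhIP 4 days apart and, a week later, DSS at 1.5% in their water over 5 days. The other 5 libraries, shown for context, came from untreated mice (the control), from mice given the same DSS course without PhIP and killed 1, 3 or 7 days after it, and from mice given PhIP and DSS and killed after 1 day. The labels record colitis on day 3 and partial colitis on day 7. Each library was made from RNA of 3 mice combined in equal amounts, so each day is 1 measurement without a replicate. Differences between the days are therefore descriptions of these pools and carry no test.

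PhIP is a heterocyclic amine that forms in cooked meat and becomes a DNA-damaging carcinogen after activation by CYP1A enzymes. DSS (dextran sulfate sodium) injures the colon lining and causes colitis, which is followed by regrowth of the crypts when DSS is withdrawn. During that repair the mucosa passes from innate inflammation, carried by neutrophils and monocytes, to a lymphocyte-rich state in which epithelial cells and resident immune cells present antigen under the influence of interferon gamma.

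The unit of comparison was the number of uniquely mapped reads per gene, scaled to the library total, and levels are given in RPKM, which divides the reads by gene length and library total. In units of 1000 unique reads, the day 3 library held 8424 and the day 7 library 8401, and the range over all 7 libraries was 7664 to 8782. Of 18036 genes listed in any library, 16786 had a read in at least 1 of the 2 libraries and 13539 had the 10 reads over the pair that were required for a ratio. Intervals beside a ratio are exact 95% intervals for the counts of 2 libraries. They cover counting error only and do not include the spread between mice. A gene without reads was set at a floor of 3 reads, and its ratio is given as a bound. Epcam, a surface adhesion molecule of epithelia, was at 902 RPKM on day 3 and 1018 RPKM on day 7, and Krt8, a keratin of simple epithelia, at 3628 and 3284 RPKM. Of 11 epithelial identity genes 7 were below 1, with a median log2 ratio of -0.12 and the lowest, -1.20, for Cdx2, which is described further on. Mouse Cyp1a1 and Cyp1a2 had 0 reads in all 7 libraries. Reads were counted over mouse genes, so this does not describe the human CYP1A genes that the line carries.

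In the day 7 library 959 of 13539 genes (7.08%) were at least 2-fold higher than in the day 3 library, and 192 (1.42%) were at least 2-fold lower. The median log2 ratio over all tested genes was 0.02. The DSS arm, which shares no library with this pair, gave 413 of 13528 genes (3.05%) at least 2-fold higher and 293 (2.17%) at least 2-fold lower between the same days. Higher genes were mostly of low abundance: they made up 27.1% of the genes with 10 to 49 reads over the pair, 5.99% of those with 50 to 499 reads and 0.501% of those with 500 or more. Of the 857 higher genes that could be tested in both arms, 99 (11.6%) were also at least 2-fold higher on day 7 after DSS alone, which is 27.3% of the 362 genes higher there. A further 63 were at least 2-fold lower there. Of the 171 lower genes tested in both arms, 21 (12.3%) were also lower after DSS alone, or 9.01% of the 233 lower genes of that arm, and 8 were at least 2-fold higher there.

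**Figure D1:**
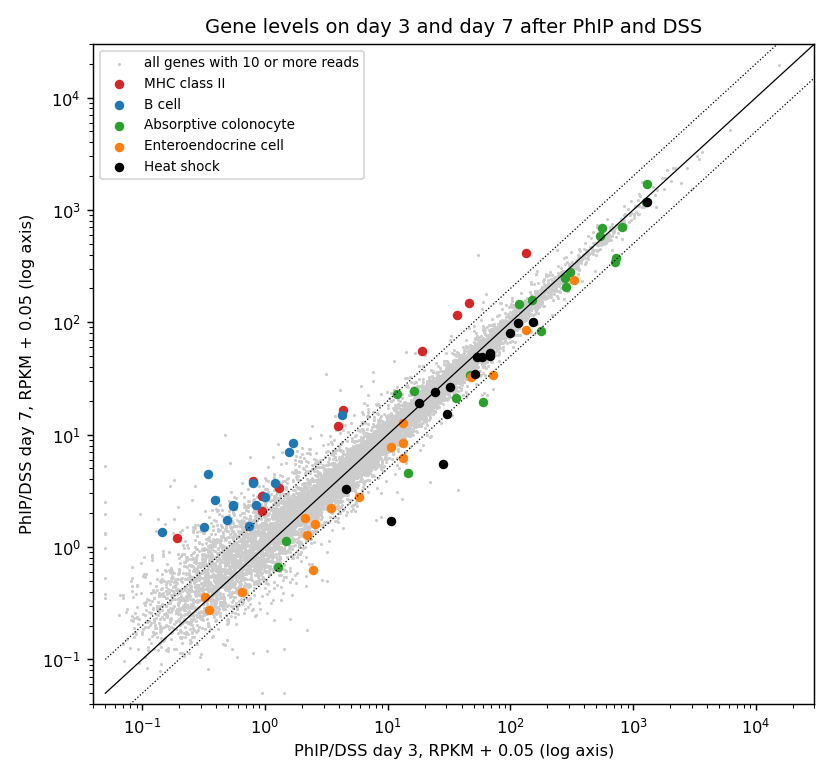
Each grey point is 1 of 13539 genes, plotted at its RPKM plus 0.05 on day 3 (horizontal, log axis) and day 7 (vertical, log axis) after PhIP and DSS. Dotted lines mark a 2-fold difference. The 11 MHC class II genes (red) and 15 B cell genes (blue) lie above the upper line, while 4 absorptive cell genes (green), 4 enteroendocrine genes (orange) and 2 heat shock genes (black) lie below the lower line.

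Among genes with at least 5 RPKM on either day, the 15 with the highest ratios were Spock2, Clec4e, Klk15, Mgp, Spp1, Clu, Hp, St3gal4, Wif1, Acod1, Cd79b, Cxcl13, Gngt2, Il1b and Fcmr. They include products of activated myeloid cells: Clec4e, a receptor for fungal and mycobacterial glycolipids, Acod1, which makes itaconate, and Il1b, the interleukin 1 beta gene. Others are B cell genes (Cd79b, Fcmr), matrix genes (Spock2, Mgp, Spp1) and genes of secreted proteins (Clu, Klk15). The 15 with the lowest ratios were Reg3b, Hspa1a, C2cd4b, Hspa1b, Snord14e, B3gnt6, C2cd4a, Mgll, Alpi, Cyp2c65, Fabp2, Slc3a1, Slc1a4, Dpep1 and Ccn3. Several of these belong to the absorptive brush border: Alpi is intestinal alkaline phosphatase, Slc3a1 a subunit of the cystine transporter and Dpep1 a membrane dipeptidase. Fabp2, the intestinal fatty acid binding protein, is in the list of absorptive cell genes. Hspa1a and Hspa1b encode nearly identical inducible Hsp70 proteins, and reads shared by such copies may have been lost from both. Snord14e, with 10 reads on day 3 and 2 on day 7, lies in an intron of Hspa8, and its reads cannot be told apart from those of its host.

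**Figure D2:**
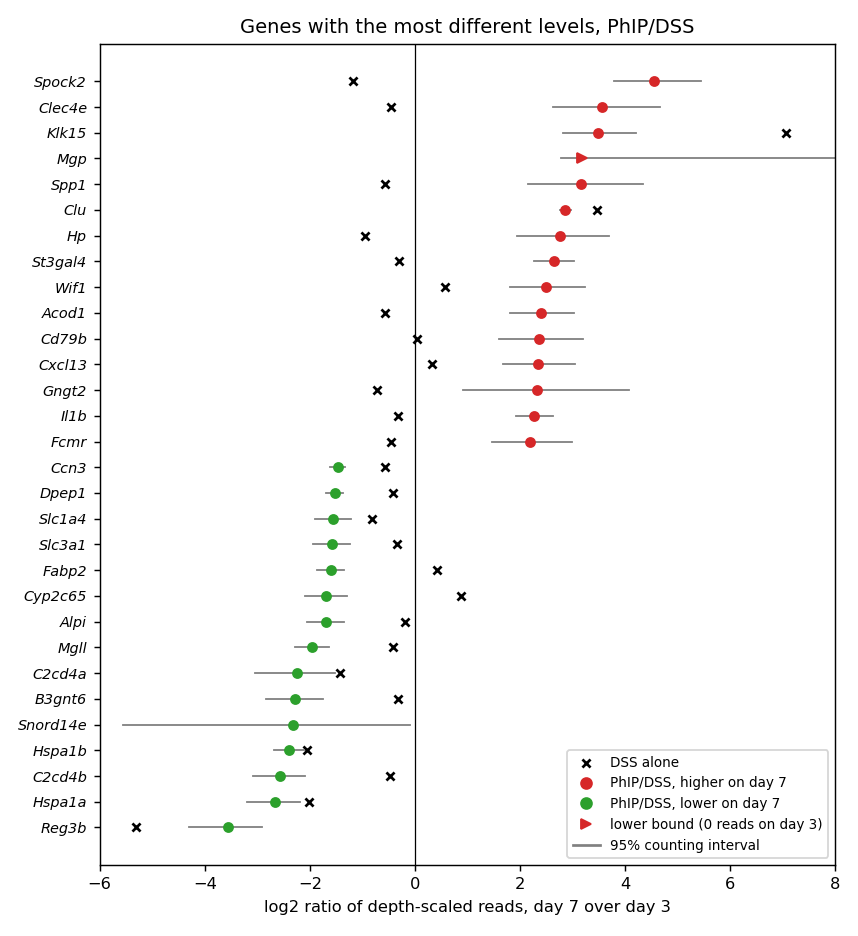
The log2 ratio of depth-scaled reads, day 7 over day 3, is plotted for the 15 highest and 15 lowest genes of at least 5 RPKM. Circles are PhIP/DSS with the 95% counting interval, the triangle is a lower bound for Mgp, which had 0 reads on day 3, and crosses give the DSS arm for the genes with 10 reads there. Clu, Klk15, Reg3b, Hspa1a and Hspa1b lie on the same side of 0 in both arms, whereas the crosses of Spock2, Clec4e, Spp1, Hp, Acod1 and Il1b lie on the other side of 0.

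The class II genes of the major histocompatibility complex, which present extracellular antigen to helper T cells, were all higher on day 7. Of 11 genes in the list, 11 of 11 tested were at least 2-fold higher (background 7.08%), with a median log2 ratio of 1.65 against 0.02 for all genes. Cd74, the invariant chain that guides class II molecules to the endosome, stood at 112 RPKM in the control, at 158, 104 and 219 on days 1, 3 and 7 after DSS alone, and at 314, 135 and 410.1 on those days after PhIP and DSS. It was 3.04-fold higher (interval 2.88 to 3.22) in the pair, and the day 7 level was the highest of the 7 libraries. H2-Ab1, the beta chain of I-A (chromosome 17, 34263227 to 34269418, GRCm38.p6), stood at 37.8 RPKM in the control, at 59.2, 43.0 and 79.2 on days 1, 3 and 7 after DSS alone, and at 107, 45.8 and 149 on those days after PhIP and DSS. Its partner H2-Aa went from 36.9 to 116 RPKM between the 2 libraries, and H2-Eb1, the beta chain of I-E, from 18.9 to 56.1 RPKM. Ciita, the transactivator that class II promoters need, was at 1.24 RPKM on day 3 and 3.31 RPKM on day 7, 2.67-fold higher (interval 1.95 to 3.70).

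The peptide-loading chains H2-DMa and H2-DMb1 were 3.06-fold higher (interval 2.24 to 4.25) and 3.86-fold higher (interval 2.78 to 5.46). H2-Oa and H2-Ob, which restrain H2-DM and are typical of B cells, were lower in level, at 2.80 and 2.05 RPKM on day 7, and their ratios were 1.65 and 1.21 on the log2 scale. After DSS alone the same list had 5 of 11 genes at least 2-fold higher (background 3.05%) and 1 lower (background 2.17%), with a median of 0.90. There Cd74 was at 104 and 219 RPKM on days 3 and 7 and H2-Oa at 1.07 and 0.455 RPKM. Summed over the list, the level was 248 RPKM on day 3 and 772 on day 7, against 209.8 in the control and 569 on day 1 after PhIP and DSS. Class II genes are shared by B cells, macrophages, dendritic cells and interferon-exposed epithelium, and markers of the immune types were higher with them, as given below. Their part in the class II result was not tested. In RNA from a mixed tissue, more cells of a type and more RNA per cell cannot be told apart, here and in all that follows.

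The promoters of H2-Aa and H2-Eb1 are shown because they hold the Y box, the inverted CCAAT element that NF-Y binds in this family. The letters searched were CTGATTGG on both strands, in RefSeq windows of GRCm38.p6 from 250 bases before to 50 after a transcript start. This motif was added after the values had been seen. It was in 4 of the 9 windows found for 8 of the 11 class II genes (44.4%) and in 4.1% of all 32851 windows. Capitals mark the match, which begins 51 bases before the start in H2-Aa (chr17:34287774-34288073, minus strand) and 62 bases before it in H2-Eb1 (chr17:34305617-34305916, plus strand).
H2-Aa: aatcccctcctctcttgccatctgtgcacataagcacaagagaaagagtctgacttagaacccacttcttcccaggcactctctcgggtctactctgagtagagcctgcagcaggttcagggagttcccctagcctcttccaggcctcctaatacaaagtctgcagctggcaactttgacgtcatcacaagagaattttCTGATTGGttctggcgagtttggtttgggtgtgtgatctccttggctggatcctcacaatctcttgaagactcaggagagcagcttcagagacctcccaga
H2-Eb1: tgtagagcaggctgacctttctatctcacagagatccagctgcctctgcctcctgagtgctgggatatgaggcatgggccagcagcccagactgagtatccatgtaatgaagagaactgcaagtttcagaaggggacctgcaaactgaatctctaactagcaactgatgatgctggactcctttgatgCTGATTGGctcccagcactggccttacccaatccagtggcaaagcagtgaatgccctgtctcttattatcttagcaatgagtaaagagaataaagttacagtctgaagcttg

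B lymphocyte genes formed the list with the highest median. All 15 genes were at least 2-fold higher (background 7.08%), 14 of them with an interval above 1, and the median log2 ratio was 2.20. None of the genes was at 0 in either library. Reads were few, between 22 and 213 over the pair per gene, and 4 genes had under 50, a class in which 27.1% of all genes were called higher. Cd79b, a signalling chain of the B cell antigen receptor, had 17 reads on day 3 and 87 on day 7. In RPKM, Cd79b was at 4.77 RPKM in the control, at 2.42, 2.50 and 2.56 on days 1, 3 and 7 after DSS alone, and at 4.28, 1.64 and 8.41 on those days after PhIP and DSS. The day 7 level was 5.13-fold higher (interval 3.03 to 9.21) and stood above every other library.

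Its partner chain Cd79a was at 4.20 RPKM on day 3 and 14.9 RPKM on day 7, and at 7.96 RPKM in the control. Ms4a1, which encodes CD20, was 4.86-fold higher (interval 2.65 to 9.63), and Blk, a kinase of the receptor, had 2 and 27 reads, 13.5-fold higher (interval 3.40 to 117). Cr2 and Fcer2a, the complement and IgE receptors of follicular cells, were 5.44-fold higher (interval 3.05 to 10.4) and 2.94-fold higher (interval 1.61 to 5.69). The smallest difference of the list was that of Pax5, the lineage factor, with 7 and 15 reads, 2.15-fold higher (interval 0.825 to 6.23).

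Genes that organize lymphoid follicles were looked up after these values had been seen. Cxcl13, the chemokine that draws B cells into follicles, was at 4.38 RPKM in the control, at 2.46, 3.33 and 4.17 on days 1, 3 and 7 after DSS alone, and at 13.3, 2.35 and 11.9 on those days after PhIP and DSS. Its receptor Cxcr5 was 4.65-fold higher (interval 2.39 to 9.89). Ccr7, which guides lymphocytes and dendritic cells, went from 5 to 19 reads, 3.81-fold higher (interval 1.38 to 13.1). Ltb (lymphotoxin beta) was 3.43-fold higher (interval 1.77 to 7.16) and Spib, a factor of B cells and M cells, 3.40-fold higher (interval 2.43 to 4.83). Gp2, a surface receptor of M cells, had 5 and 12 reads.

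After DSS alone 2 of 14 B cell genes were at least 2-fold higher (background 3.05%), 1 lower (background 2.17%), and the median was -0.04. Summed over the list, the day 7 library after PhIP and DSS held 60.1 RPKM, the day 3 library 14.1, the control 27.8 and the day 7 library after DSS 15.1. A scraped sample that takes in a lymphoid follicle carries such RNA, and the number of follicles in each pool is not given by the labels. Its part in the result was not tested.

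Jchain, the joining chain of secreted IgA, was at 9.39 RPKM in the control, at 7.81, 15.1 and 34.3 on days 1, 3 and 7 after DSS alone, and at 26.3, 16.5 and 53.5 on those days after PhIP and DSS. Both arms were higher on day 7, 3.23-fold higher after PhIP and DSS and 2.27-fold higher after DSS. Of the plasma cell list 2 of 6 genes passed 2-fold (background 7.08%, median 0.75), and 3 of the 6 had under 50 reads. Of 18 T and NK cell genes 6 passed 2-fold, 5 of them with an interval above 1, and the median was 0.56. As 13 of the 18 had under 50 reads, a class with 27.1% of all genes called higher, this count is near the background of genes with as few reads. Cd4 had 14 and 31 reads, Foxp3, the factor of regulatory T cells, 7 and 23, and Cd3g 3 and 21. Cd8a (15 and 18 reads) and Nkg7 (13 and 11), of cytotoxic cells, were near level. Ptprc, which encodes the common leukocyte antigen CD45, was 3.18-fold higher (interval 2.53 to 4.02) and was looked up after seeing the values.

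The interferon gamma list holds the genes for guanylate-binding proteins, GTPases that attack the vacuoles of intracellular microbes, with chemokines and other induced genes. Of 26 tested genes 12 were at least 2-fold higher (background 7.08%) and 0 lower, with a median log2 ratio of 0.94. The range ran from -0.24 for Irf8 to 2.33 for Cxcl11, which had 2 and 10 reads. Gbp2 was the most abundant of the family, at 20.9 RPKM in the control, at 24.3, 40.2 and 80.3 on days 1, 3 and 7 after DSS alone, and at 47.5, 60.0 and 150.1 on those days after PhIP and DSS. It was 2.50-fold higher (interval 2.34 to 2.67), with its highest level on day 7 after PhIP and DSS. Gbp3 and Gbp5 were 2.60-fold higher (interval 2.20 to 3.09) and 3.87-fold higher (interval 2.82 to 5.39). Unlike Gbp2, Gbp5 was not highest on day 7: its level was 7.60 RPKM there, 10.1 on day 3 after DSS and 9.69 on day 1 after PhIP and DSS.

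Ido1, which breaks down tryptophan, was at 17.9 RPKM on day 3 and 41.0 RPKM on day 7. Ubd, a ubiquitin-like protein, was at 13.9 RPKM on day 3 and 54.6 RPKM on day 7, 3.92-fold higher (interval 3.18 to 4.87), and both also stood higher on day 7 after DSS alone, at 29.1 and 31.7 RPKM against 9.30 and 4.45 on day 3. Cxcl9, a chemokine for T cells, was 2.89-fold higher (interval 2.27 to 3.70), while Cxcl10, of the same receptor, was 1.43-fold higher (interval 1.03 to 1.99). Regulators of the response differed less: Irf1 was 1.13-fold higher (interval 1.07 to 1.20) and Socs1, a feedback inhibitor, went from 77 to 75 reads. Ifng itself had 1 read on each day, too few for a ratio. After DSS alone 2 of 26 genes of the list passed 2-fold (background 3.05%), and the median was 0.42.

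Antiviral genes of the type I and III interferon response were higher by a smaller step. 25 of 26 had a ratio above 1, 3 passed 2-fold (background 7.08%), and the median log2 ratio was 0.53. Isg15, a ubiquitin-like modifier, was at 50.6 RPKM on day 3 and 92.9 RPKM on day 7, 1.84-fold higher (interval 1.60 to 2.11), and Oasl2 at 85.3 RPKM on day 3 and 133 RPKM on day 7. Ifi27l2a had the highest ratio with 15 and 59 reads. Genes of MHC class I and its peptide supply had a median of 0.42, with 0 of 12 past 2-fold and 11 above 1.

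Promoters of 3 guanylate-binding protein genes, neighbours on chromosome 3, are shown because their genes were all at least 2-fold higher and share the core of the interferon-stimulated response element. The core searched was GAAA followed, after any 2 bases, by GAAA again, on both strands. The core was in 11 of 20 windows (55%) found for 17 of the 27 genes of the interferon gamma list, in 12 of 22 windows (54.5%) found for 20 of the 27 antiviral genes, in 0 of 9 class II windows and in 3.44% of all 32851 windows. The gamma-activated site, TTCNNNGAA, was in 8 of the 20 windows (40%) and in 8.3% of all windows. The AP-1 site TGANTCA was in 4 of the 20 (7.81% of all windows) and the E-box CACGTG in 0 of them (7.15% of all windows). Matches describe letters in these windows and not binding. Capitals mark the response element core, here on the reverse strand, where it reads TTTC, 2 bases and TTTC. It begins 59 bases before the start in Gbp2 (chr3:142620413-142620712) and 165 bases before it in Gbp5 (chr3:142496684-142496983), and 2 overlapping copies begin 45 and 39 bases before it in Gbp3 (chr3:142559794-142560093). All 3 windows are on the plus strand.
Gbp2: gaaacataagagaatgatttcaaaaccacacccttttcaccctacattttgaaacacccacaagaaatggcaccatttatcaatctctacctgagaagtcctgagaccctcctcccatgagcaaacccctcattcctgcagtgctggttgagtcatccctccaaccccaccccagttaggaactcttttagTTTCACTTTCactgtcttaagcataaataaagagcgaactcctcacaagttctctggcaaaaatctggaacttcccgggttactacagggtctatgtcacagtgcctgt
Gbp3: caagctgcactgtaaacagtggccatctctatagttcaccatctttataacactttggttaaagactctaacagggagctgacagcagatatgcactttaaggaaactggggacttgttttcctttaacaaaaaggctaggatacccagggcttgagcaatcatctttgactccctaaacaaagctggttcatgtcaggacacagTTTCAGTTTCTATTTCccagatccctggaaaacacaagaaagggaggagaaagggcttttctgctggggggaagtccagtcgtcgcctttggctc
Gbp5: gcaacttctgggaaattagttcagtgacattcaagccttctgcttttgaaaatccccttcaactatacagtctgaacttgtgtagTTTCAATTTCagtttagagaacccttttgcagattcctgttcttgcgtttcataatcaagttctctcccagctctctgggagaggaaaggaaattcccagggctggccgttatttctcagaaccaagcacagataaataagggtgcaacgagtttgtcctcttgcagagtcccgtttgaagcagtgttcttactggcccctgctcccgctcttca

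Neutrophil genes were low on day 3 and most of those tested were higher on day 7. Of 15 neutrophil genes tested 13 were at least 2-fold higher (background 7.08%), 11 of them with an interval above 1. The median was 1.23. Under 50 reads were found for 7 of the 15, a class in which 27.1% of all genes were called higher. Camp, Stfa2l1 and Trem3, granule and receptor genes of neutrophils, had 0 reads on day 3 and were among the 5 of 20 genes not tested. In the DSS arm 0 of 18 were at least 2-fold higher (background 3.05%) and 7 lower (background 2.17%), with a median of -0.72. S100a9, a subunit of calprotectin, was at 0.802 RPKM in the control, at 16.4, 583 and 236 on days 1, 3 and 7 after DSS alone, and at 426, 14.4 and 31.7 on those days after PhIP and DSS. It was 2.21-fold higher (interval 1.61 to 3.06) after PhIP and DSS and 2.47-fold lower after DSS alone. The day 7 level was still 31.7 RPKM against 236 on the same day after DSS. Il1b was at 1.28 RPKM in the control, at 17.7, 127 and 101 on days 1, 3 and 7 after DSS alone, and at 263, 7.51 and 36.1 on those days after PhIP and DSS. It was 4.81-fold higher (interval 3.79 to 6.16), yet below the day 1 library of the same arm and below both later libraries of the DSS arm.

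Acute inflammatory cytokines and enzymes differed among themselves. Of 11 tested 3 passed 2-fold (background 7.08%), Il1a, Il1b and Ptgs2, and 3 were below 1. The median was 0.27, and the lowest log2 ratio was -0.49 for Lif, a cytokine of the interleukin 6 family. A further 8 genes had too few reads. Ptgs2, the inducible cyclooxygenase, went from 40 to 145 reads, 3.63-fold higher (interval 2.55 to 5.30), and Il1a from 10 to 61, 6.12-fold higher (interval 3.11 to 13.4). Nos2, the inducible nitric oxide synthase, was level at 60.4 RPKM on day 3 and 56.4 RPKM on day 7, and Tnf was 1.40-fold higher (interval 1.06 to 1.85). Il6 had 0 and 2 reads and Il17a 2 and 1. Of 16 macrophage and monocyte genes 9 passed 2-fold (background 7.08%, median 1.12). Reads were under 50 for 5 of the 16, a class in which 27.1% of all genes were called higher. In the DSS arm 0 of 15 passed 2-fold (background 3.05% higher, median -0.04). The summed level of the list on day 7 after PhIP and DSS was 219 RPKM. It was 589 on day 1 of that arm, and 335 and 287 on days 3 and 7 after DSS alone. Lyz2, the lysozyme of phagocytes, was 2.55-fold higher (interval 2.14 to 3.05), and C1qa, a complement subunit made by tissue macrophages, at 8.34 RPKM on day 3 and 18.6 RPKM on day 7. Cd163, a receptor of resident macrophages, had 6 and 4 reads. Clec4e, named above, went from 10 to 118 reads, 11.8-fold higher (interval 6.21 to 25.3). Its day 7 level, 5.58 RPKM, was below 41.4 on day 1 of the same arm and below 21.9 and 15.9 on days 3 and 7 after DSS alone. Spp1, Hp and Acod1 were likewise lower on day 7 after PhIP and DSS than in each of those libraries. Itgax, which marks dendritic cells and some macrophages, was 3.01-fold higher (interval 2.02 to 4.58).

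Of 18 chemokine genes tested 8 passed 2-fold (background 7.08%), with a median of 0.69: Ccl7, Ccl8, Cxcl13, Ccl3, Ccl5, Ccl4, Cxcl12 and Cxcl14. Reads were under 50 for 8 of the 18, the class in which 27.1% of all genes were called higher. Ccl7, which draws monocytes, had 1 read on day 3 and 30 on day 7, 30.1-fold higher (interval 5.00 to 1227). Ccl5, which draws T cells, was 4.10-fold higher (interval 2.09 to 8.79). The neutrophil attractants Cxcl1, Cxcl2 and Cxcl5 had log2 ratios of 0.22, 0.45 and -0.55. Their counting intervals include 1 for Cxcl1 and Cxcl2. Ccl2, a monocyte attractant like Ccl7, had 6 and 8 reads, and Ccl20, Ccl25 and Ccl28, made by epithelium, had log2 ratios of 0.38, 0.07 and 0.16.

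**Figure D3:**
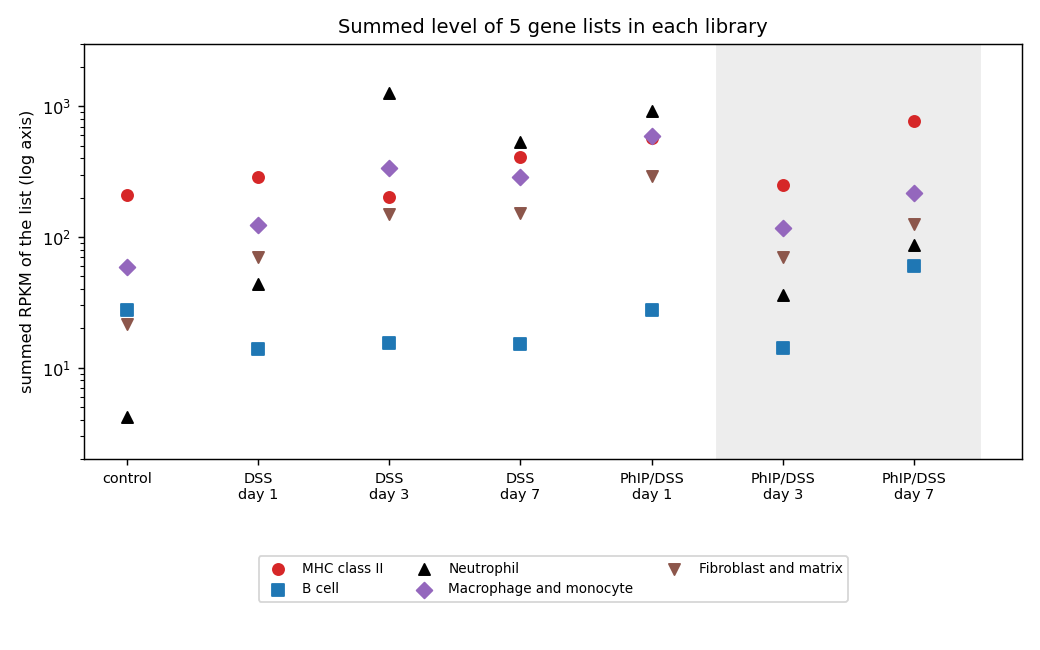
The summed RPKM of 5 gene lists (vertical, log axis) is plotted for each of the 7 libraries, with the pair compared here shaded. From day 3 to day 7 after PhIP and DSS all 5 sums are higher, class II from 248 to 772 and B cell from 14.1 to 60.1. The neutrophil sum on day 7, 87.1, lies under those of DSS days 3 and 7, 1264 and 530.3.

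Antimicrobial genes went both ways. Reg3b, a bactericidal lectin of the epithelium, was at 1.72 RPKM in the control, at 40.0, 166 and 4.15 on days 1, 3 and 7 after DSS alone, and at 463, 37.1 and 3.14 on those days after PhIP and DSS. It had the lowest ratio of the genes over 5 RPKM, 11.8-fold lower (interval 7.48 to 19.7), and after DSS alone it was 39.9-fold lower. Its neighbour Reg3g was 1.97-fold lower (interval 1.37 to 2.88), and Retnlb, a goblet cell product against helminths, 1.99-fold lower (interval 1.94 to 2.04). Lcn2, which withholds iron from bacteria, and Saa3, an acute phase protein, were 3.76-fold higher (interval 2.53 to 5.74) and 4.49-fold higher (interval 2.94 to 7.10), while after DSS alone they were 5.40-fold lower and 3.63-fold lower. Lcn2 was at 0.765 RPKM in the control, at 11.3, 253 and 46.9 on days 1, 3 and 7 after DSS alone, and at 249.5, 4.45 and 16.7 on those days after PhIP and DSS. In all, 5 of 20 genes of the list were at least 2-fold higher and 2 lower, beside backgrounds of 7.08% and 1.42%. After DSS the counts were 1 and 8 of 20, beside 3.05% and 2.17%.

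Of 15 matrix metalloproteinase and inhibitor genes 7 passed 2-fold (background 7.08%, median 0.88), 6 of them with an interval above 1. Reads were under 50 for 5 of the 15, a class in which 27.1% of all genes were called higher. Timp2 and Timp3, inhibitors of these enzymes, were 3.19-fold higher (interval 2.15 to 4.83) and 2.24-fold higher (interval 1.96 to 2.57), and Mmp10, a stromelysin of wound-edge epithelium, 2.30-fold higher (interval 1.55 to 3.49). Mmp7 and Mmp13 were at 27.0 RPKM on day 3 and 32.3 RPKM on day 7 and at 2.75 RPKM on day 3 and 3.25 RPKM on day 7. Of 18 fibroblast genes 5 passed 2-fold (background 7.08%) and 17 had a ratio above 1. Fn1, fibronectin, was 3.32-fold higher (interval 2.77 to 4.00), Dcn, decorin, 2.43-fold higher (interval 1.91 to 3.09), and Col1a1, the chain of fibrillar collagen I, 1.48-fold higher (interval 1.28 to 1.71). Mgp, matrix Gla protein, had 0 reads on day 3 and 27 on day 7, at least 9.02-fold higher. Igfbp5, looked up after seeing the values, was 3.87-fold higher (interval 2.96 to 5.11).

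Acta2, alpha smooth muscle actin, was 2.70-fold higher (interval 1.97 to 3.75), and Myh11, the smooth muscle myosin heavy chain, had 3 and 29 reads. 4 of 9 smooth muscle genes and 4 of 7 endothelial genes passed 2-fold, 3 in each list with an interval above 1. In each list 4 genes had under 50 reads, where 27.1% of all genes were called higher, against 7.08% of all genes tested. Actg2, a smooth muscle actin with 5 and 10 reads, was within 2-fold under TMM and median-ratio scaling. Summed levels were 70.7 and 125 RPKM for the fibroblast list and 31.1 and 45.1 RPKM for smooth muscle on days 3 and 7. The fibroblast sum was 21.6 in the control, 292 on day 1 after PhIP and DSS, and 151 and 153 on days 3 and 7 after DSS alone. The smooth muscle sum was 38.5 in the control and 45.2 on day 7 after DSS alone. The labels say that epithelium was scraped off the muscle layer. How deep the scraping went in each pool is not given, and its part in these results was not tested.

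Clu had the largest difference of the genes with at least 500 reads over the pair and 5 RPKM on either day. It encodes clusterin, a secreted chaperone that marks revival stem cells in the injured gut (chromosome 14, 65968483 to 65981548, GRCm38.p6). The cells that the reads of Clu, and of Klk15 and Gata5 below, came from were not tested. Clu was at 28.6 RPKM in the control, at 22.3, 41.4 and 460.1 on days 1, 3 and 7 after DSS alone, and at 48.7, 54.5 and 395 on those days after PhIP and DSS. Both day 7 libraries stood apart from the other 5, 7.26-fold higher (interval 6.75 to 7.81) than day 3 after PhIP and DSS and 11.1-fold higher after DSS alone. Klk15, a kallikrein protease, was at 10.9 RPKM in the control, at 0, 0.149 and 19.9 on days 1, 3 and 7 after DSS alone, and at 0.306, 3.10 and 34.5 on those days after PhIP and DSS. Both day 7 libraries were above the control and the earlier libraries of each arm below it, and the day 7 library was 11.1-fold higher (interval 7.04 to 18.6) than day 3 here. Gata5, a gut transcription factor looked up after seeing the values, had the same shape, 4 and 62 reads on days 3 and 7, while Gata6 was level at 25.9 RPKM on day 3 and 23.4 RPKM on day 7.

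Other members of the fetal-like repair list did not share the step of Clu. 3 of 20 passed 2-fold (background 7.08%), among them Clu and Spp1, osteopontin, which macrophages also make. Ly6a, which encodes Sca-1 and marks regenerating epithelium, was 1.33-fold higher (interval 1.29 to 1.38), and Anxa1 was at 179 RPKM on day 3 and 205 RPKM on day 7. Emp1, Sprr1a and Plaur, of migrating wound epithelium, were 1.96-fold lower (interval 1.86 to 2.08), 1.78-fold lower (interval 1.61 to 1.98) and 1.57-fold lower (interval 1.34 to 1.83). St3gal4, a sialyltransferase, was at 0.951 RPKM in the control, at 66.6, 32.1 and 26.0 on days 1, 3 and 7 after DSS alone, and at 7.05, 4.04 and 25.1 on those days after PhIP and DSS. Its low point was the control, and the day 3 library after PhIP and DSS was the next lowest.

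Mptx1, a pentraxin of the colon, was at 1804 RPKM in the control, at 6.13, 1.70 and 13.3 on days 1, 3 and 7 after DSS alone, and at 5.11, 59.1 and 132 on those days after PhIP and DSS. The day 7 level was 2.23-fold higher (interval 1.98 to 2.52) than day 3, and far under the control. S100g, the vitamin D dependent calcium carrier calbindin-D9k, was at 13.8 RPKM on day 3 and 31.7 RPKM on day 7 against 46.8 in the control, and Slc37a2, a sugar-phosphate exchanger, at 11.8 RPKM on day 3 and 22.8 RPKM on day 7 against 97.3. These genes were chosen after their values had been seen, and other members of their lists differed. Of 5 genes of vitamin D dependent calcium transport tested, 1, S100g, was at least 2-fold higher (background 7.08%). Slc8a1, a sodium-calcium exchanger, was 2.15-fold lower (interval 1.69 to 2.75, background 1.42% lower), and the median of these 5 genes was 0.02. Scnn1b and Scnn1g, subunits of the epithelial sodium channel, were 2.02-fold higher (interval 1.65 to 2.48) and 1.88-fold higher (interval 1.50 to 2.38), and Scnn1b was within 2-fold under TMM scaling. After DSS alone their log2 ratios between the same days were 0.06 and -0.02.

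The Wnt antagonists Notum, Nkd1 and Wif1 were higher in the day 7 library than in any of the other 6. Wnt signals keep crypt stem cells dividing, and cells with an active pathway make inhibitors of it as feedback. Notum, an enzyme that strips the lipid from Wnt proteins, was at 0 RPKM in the control, at 0.113, 0.0564 and 0 on days 1, 3 and 7 after DSS alone, and at 0, 0.118 and 3.42 on those days after PhIP and DSS. It had 2 reads on day 3 and 58 on day 7, 29.1-fold higher (interval 7.70 to 246) (chromosome 11, 120653788 to 120661193, GRCm38.p6). Nkd1, an intracellular antagonist, was at 0.272 RPKM in the control, at 0.186, 0.0264 and 0.337 on days 1, 3 and 7 after DSS alone, and at 0.244, 0.220 and 3.42 on those days after PhIP and DSS. The day 7 level was 15.5-fold higher (interval 7.65 to 36.8). After DSS alone Nkd1 was also higher on day 7 than on day 3, at a log2 ratio of 3.67, from only 0.0264 RPKM. The day 7 library of the DSS arm was close to the control. Wif1, which binds Wnt proteins outside the cell, was at 0.815 RPKM in the control, at 0.869, 0.508 and 0.756 on days 1, 3 and 7 after DSS alone, and at 0.732, 1.11 and 6.26 on those days after PhIP and DSS, 5.63-fold higher (interval 3.52 to 9.44).

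Lef1, Sp5 and Tnfrsf19, targets of the pathway, were 2.90-fold higher (interval 1.32 to 7.03), 3.01-fold higher (interval 1.14 to 9.26) and 3.01-fold higher (interval 1.23 to 8.38). In the whole list of crypt stem cell and Wnt target genes 6 of 20 passed 2-fold (background 7.08%), those just named. The median log2 ratio was 0.16. Reads were under 50 for 3 of the 20, a class in which 27.1% of all genes were called higher. Axin2, the standard feedback target, was at 10.1 RPKM on day 3 and 9.60 RPKM on day 7, Lgr5, the stem cell receptor, 1.56-fold higher (interval 1.16 to 2.10), and Ascl2, the stem cell factor, had 29 and 34 reads. Myc, Ephb2 and Sox9, further targets, were 1.33-fold lower (interval 1.17 to 1.51), 1.38-fold lower (interval 1.27 to 1.51) and 1.24-fold lower (interval 1.15 to 1.35).

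Genes with the same shape as Notum were then searched for with the values in view, so their levels are a description. Spock2, a matrix proteoglycan with the highest ratio of all genes over 5 RPKM, was at 0.531 RPKM in the control, at 0.321, 0.348 and 0.154 on days 1, 3 and 7 after DSS alone, and at 0.238, 0.423 and 9.96 on those days after PhIP and DSS. It was 23.6-fold higher (interval 13.8 to 43.6), from 14 to 329 reads. Apcdd1, a membrane inhibitor of Wnt, had 2 and 41 reads, and Dkk2, a ligand for the Wnt co-receptors, 1 and 19. Prox1, a homeobox factor, was 3.25-fold higher (interval 1.97 to 5.58). Prss56, a serine protease, had 0 reads in the other 6 libraries and 32 on day 7, at least 10.7-fold higher than day 3. Whether these transcripts came from 1 mouse of the pool or from all 3 cannot be told from pooled RNA.

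**Figure D4:**
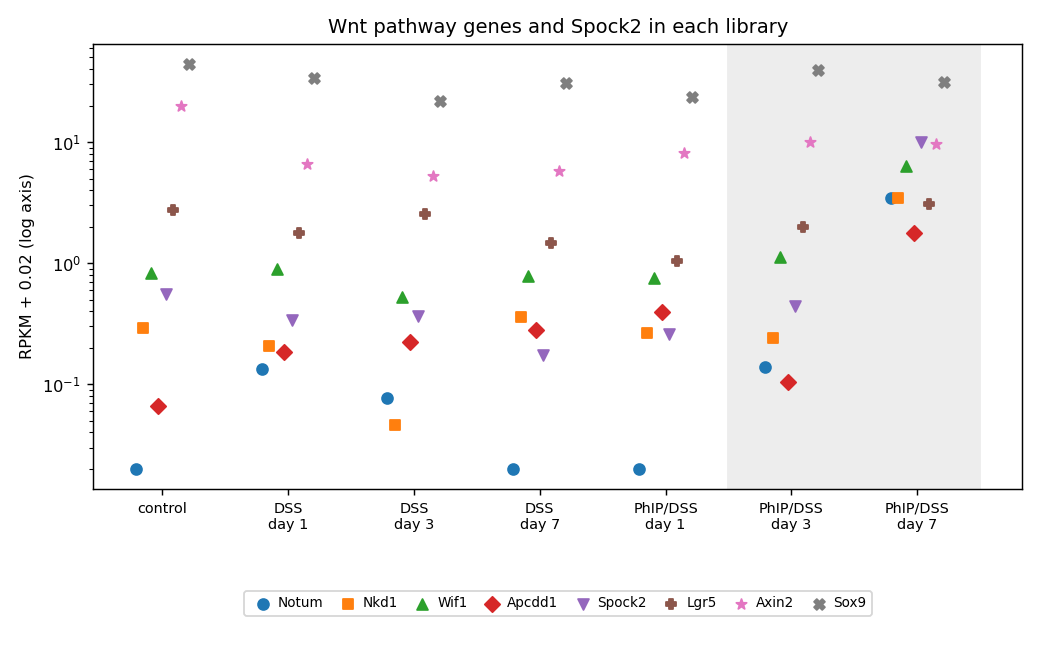
RPKM plus 0.02 (vertical, log axis) of 7 Wnt pathway genes and Spock2 is plotted for each of the 7 libraries, with the pair compared here shaded. Notum, Nkd1, Wif1, Apcdd1 and Spock2 are higher in the day 7 library after PhIP and DSS than in any other library, while Axin2 and Sox9 lie within the range of the others.

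Absorptive cell genes made up 4 of the 192 genes at least 2-fold lower. Of 21 absorptive genes 4 were at least 2-fold lower and 0 higher (background 1.42% lower), with a median of -0.19. Fabp2 was at 71.6 RPKM in the control, at 79.3, 40.0 and 53.7 on days 1, 3 and 7 after DSS alone, and at 95.3, 59.2 and 19.5 on those days after PhIP and DSS. The day 7 level was the lowest of the 7 libraries, 3.04-fold lower (interval 2.53 to 3.65). Alpi was 3.23-fold lower (interval 2.53 to 4.15), Car1, a carbonic anhydrase, 2.07-fold lower (interval 1.99 to 2.16), and Aqp4, a water channel, 2.11-fold lower (interval 2.03 to 2.20). Guca2a, which encodes guanylin, was at 1310.1 RPKM in the control, at 1196, 849 and 755 on days 1, 3 and 7 after DSS alone, and at 1199, 726 and 376 on those days after PhIP and DSS, again lowest on day 7. Of the list 14 genes were below 1 and 7 above. Slc26a3, the chloride exchanger, was at 149.7 RPKM on day 3 and 158 RPKM on day 7, Car4 at 560.4 RPKM on day 3 and 684 RPKM on day 7 and Krt20 at 806 RPKM on day 3 and 706 RPKM on day 7.

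Several metabolic genes were among the lower ones, and the cells that their reads came from were not tested. Pdk4, which shuts pyruvate oxidation, was 2.28-fold lower (interval 1.48 to 3.60). The 20 genes of butyrate uptake and fatty acid oxidation had a median of -0.15, and 2, Pdk4 among them, were at least 2-fold lower (background 1.42%). Cyp2c55, a cytochrome P450 that oxidizes arachidonic acid, was at 132 RPKM in the control, at 79.9, 13.2 and 56.1 on days 1, 3 and 7 after DSS alone, and at 75.2, 60.6 and 23.5 on those days after PhIP and DSS. Its direction differed between the arms, 2.58-fold lower (interval 2.29 to 2.90) here and 4.26-fold higher after DSS alone. Ugt1a1 and Ugt1a6a, conjugating enzymes that share exons with other genes of their locus, were 3.55-fold lower (interval 2.08 to 6.36) and 2.14-fold lower (interval 1.25 to 3.78). Mgll, which splits monoglycerides, was 3.89-fold lower (interval 3.12 to 4.89), and the neutral amino acid carrier Slc1a4 2.95-fold lower (interval 2.34 to 3.75).

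Cdx2, the factor that sets intestinal identity, was at 76.3 RPKM in the control, at 93.7, 79.0 and 70.7 on days 1, 3 and 7 after DSS alone, and at 115, 75.0 and 32.6 on those days after PhIP and DSS. The day 7 library was the lowest of the 7, 2.30-fold lower (interval 2.08 to 2.54) than day 3. Its relative Cdx1 was at 273 RPKM on day 3 and 235 RPKM on day 7 and Hnf4a at 324 RPKM on day 3 and 328 RPKM on day 7. Of 11 epithelial identity genes, Cdx2 alone passed 2-fold (background 1.42% lower).

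Of 18 genes of enteroendocrine cells tested, hormones and markers of the lineage, 4 were at least 2-fold lower (background 1.42%) and 17 had a ratio below 1. Under 50 reads were found for 6 of the 18, and the median log2 ratio was -0.64, against -0.03 for the list after DSS alone. Gcg, which encodes proglucagon and its product GLP-1, was at 49.4 RPKM in the control, at 98.4, 53.2 and 35.6 on days 1, 3 and 7 after DSS alone, and at 94.9, 72.4 and 34.0 on those days after PhIP and DSS. It was 2.13-fold lower (interval 1.86 to 2.44). Pyy, peptide YY of the same cells, was 1.39-fold lower (interval 1.29 to 1.51), and Insl5, of distal colon L cells, 1.56-fold lower (interval 1.40 to 1.75). Cck, Sct and Nts, which encode cholecystokinin, secretin and neurotensin, had 34 and 16, 57 and 26, and 25 and 6 reads. Chga, of the secretory granule, was 1.45-fold lower (interval 1.29 to 1.62), Neurod1, a lineage factor, 1.56-fold lower (interval 1.06 to 2.31), and Tac1, substance P, was level at 13.2 RPKM on day 3 and 12.7 RPKM on day 7. For several of these the day 3 library was the high one: Insl5 stood at 134 RPKM there and between 47.1 and 85.5 in the other libraries.

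Goblet cell genes were spread around a small deficit. Of 19 tested 14 were below 1, as were 6364 of 13539 genes in all, and the median was -0.26. After DSS alone 14 of 19 were also below 1, with a median of -0.20. In the pair 1 passed 2-fold (background 1.42% lower), B3gnt6, which builds the core 3 O-glycans of mucin, 4.85-fold lower (interval 3.37 to 7.15). It was at 8.10 RPKM in the control, at 10.9, 12.2 and 9.77 on days 1, 3 and 7 after DSS alone, and at 6.68, 8.78 and 1.81 on those days after PhIP and DSS, lowest on day 7. Muc2, the gel-forming mucin, was 1.47-fold lower (interval 1.45 to 1.49), and Spdef and Creb3l1, factors of secretory maturation, 1.71-fold lower (interval 1.53 to 1.91) and 1.72-fold lower (interval 1.65 to 1.80). Clca1 and Tff3, products of mature goblet cells, were at 1816 RPKM on day 3 and 1927 RPKM on day 7 and 2098 RPKM on day 3 and 2344 RPKM on day 7. Of 11 tuft cell genes 3 were past 2-fold, 1 of them with an interval above 1, and the median was 0.61. Under 50 reads were found for 6 of the 11, and the count is near the 27.1% called higher among all genes with as few. Trpm5, their taste channel, had 28 and 52 reads.

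The inducible Hsp70 genes were lower on day 7 in both arms. Hspa1b was at 1.95 RPKM in the control, at 40.2, 26.6 and 6.38 on days 1, 3 and 7 after DSS alone, and at 51.6, 28.2 and 5.38 on those days after PhIP and DSS, and Hspa1a was 6.37-fold lower (interval 4.53 to 9.17) in the pair. Hsph1, a partner of Hsp70, was 2.00-fold lower (interval 1.78 to 2.24). Of 16 heat shock genes 15 were below 1 and 2 passed 2-fold (background 1.42% lower), with a median of -0.33, against -0.67 after DSS. C2cd4a and C2cd4b, inflammation-induced nuclear proteins of similar sequence, were 4.72-fold lower (interval 2.86 to 8.21) and 5.94-fold lower (interval 4.27 to 8.44). Ccn3, a matricellular protein, was 2.78-fold lower (interval 2.51 to 3.08).

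Proliferation differed little. Of 28 DNA replication genes 26 were below 1 and 1 passed 2-fold (background 1.42% lower). This was Ung, which removes uracil from DNA, 2.43-fold lower (interval 1.64 to 3.66). The median was -0.31, and -0.31 after DSS. Mcm2, of the replicative helicase, was 1.34-fold lower (interval 1.15 to 1.57). The 23 mitosis genes had a median of 0.05 with 0 past 2-fold in either direction, while the DSS arm gave -0.42. Genes of cholesterol synthesis and uptake formed a narrow group: 21 of 22 were below 1, 0 passed 2-fold, and the ratios ran from -0.59 to 0.33 on the log2 scale. After DSS alone the median of that list was -0.05.

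The p53, NRF2 and xenobiotic lists were included because PhIP is a DNA-damaging carcinogen. The 22 p53 targets had a median of 0.08, and 1, Phlda3, passed 2-fold with 15 and 30 reads (background 7.08% higher, or 27.1% with 10 to 49 reads). Under TMM and median-ratio scaling Phlda3 was within 2-fold, at log2 ratios of 0.98 and 0.99. Cdkn1a, the p21 inhibitor of the cell cycle, was at 252 RPKM in the control, at 231, 237 and 284 on days 1, 3 and 7 after DSS alone, and at 259, 251 and 226 on those days after PhIP and DSS, and in the pair 1.11-fold lower (interval 1.06 to 1.16). Mdm2 was at 14.2 RPKM on day 3 and 14.9 RPKM on day 7. The NRF2 targets had a median of -0.13 and 0 genes past 2-fold in either direction. The xenobiotic list had 3 of 20 genes at least 2-fold lower (background 1.42%), Cyp2c55, Ugt1a1 and Ugt1a6a, and a median of -0.06. Medians of the hypoxia, claudin and EGF receptor lists were -0.01, 0.09 and 0.05, and 0 genes of each passed 2-fold.

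**Figure D5:**
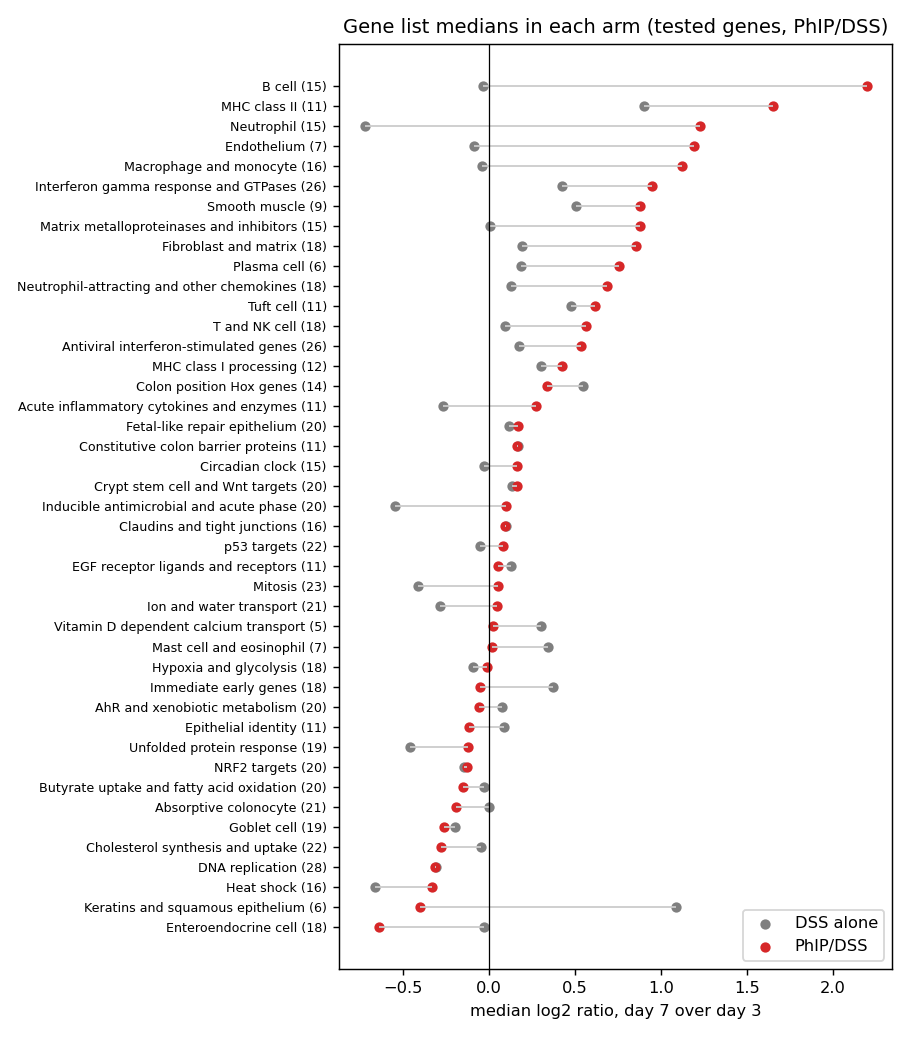
The median log2 ratio, day 7 over day 3, is plotted for 43 gene lists with at least 5 tested genes in both arms, red for PhIP/DSS and grey for DSS alone, with the number of genes tested after PhIP and DSS in parentheses. The B cell list lies farthest right, at 2.20 with a grey point at -0.04, and the neutrophil list has points on both sides of 0, at 1.23 and -0.72.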

How the data were processed

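Colon RNA was enriched with oligo(dT), fragmented and sequenced on an Illumina HiSeq, per the labels' protocols. The deposited tables hold, per the file headers, a unique-read count for every gene with a read, its length, and an RPKM that the authors derived from that count, the length and the library total. The submitters' processing notes name mm10 and FastQC. Aligner, counter, annotation and use of strand: not given in the sources used here. The tables' names carry 7 and 17 where the labels say days 3 and 7, and the labels were followed.

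Tables were joined on gene identifier, a missing gene counting as 0 reads. Symbols and positions came from a RefSeq table of GRCm38.p6, which named 17983 of 18036 genes. For 11 genes the stated length differed between both libraries, which touches their RPKM only. Ratios are depth-scaled reads, with exact conditional binomial intervals (scipy), tested on simulated data. Genes were named as the 15 highest and 15 lowest ratios with 10 reads over the pair and 5 RPKM on either day, and as the extreme and defining members of each list, with others marked as chosen later. Some genes that this rule names are not reported here. Members and the 47 gene lists were chosen with earlier results of these data known. Genes with near-identical copies (class II, Gbp, Reg3, Hspa1, C2cd4 and Ugt1a genes) are uncertain where unique reads could not be assigned. Alternatives were other scalings (edgeR's TMM and median-ratio factors), read minimums, folds and RPKM offsets. Figures were drawn with matplotlib.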

Additional observations from a re-analysis of the deposited data

Results flagged for a closer look

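Of the genes named above, 8 were at least 2-fold apart between days 3 and 7 in opposite directions in the PhIP/DSS and DSS arms. With 1 library per arm and day the difference between the arms was not tested. The gap, the log2 ratio after PhIP and DSS minus that after DSS, was 5.73 for Spock2, 4.34 for Lcn2, 4.03 for Saa3, 2.88 for H2-Oa, 2.67 for Sp5, 2.57 for Fcer2a and 2.45 for S100a9, all higher on day 7 after PhIP and DSS and lower after DSS alone. For Cyp2c55 it was -3.46, lower on day 7 after PhIP and DSS and higher after DSS alone. For Lcn2, Saa3 and S100a9 the day 3 levels differed between the arms: 4.45, 6.04 and 14.4 RPKM after PhIP and DSS against 253, 442 and 583 RPKM after DSS. On day 7 all 3 were still lower in the PhIP/DSS arm, at 16.7, 27.1 and 31.7 RPKM against 46.9, 122 and 236. H2-Oa, Sp5 and Fcer2a rest on few reads, 8 and 25, 6 and 18, and 15 and 44 on days 3 and 7 after PhIP and DSS. After DSS alone they had 10 and 4, 9 and 4, and 15 and 7 reads, and Spock2 12 and 5. For these 4 genes the counting interval of the DSS ratio includes 1, so that direction is within counting error.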

How the results depend on the processing

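No paired analysis was possible because each condition had 1 pooled library, and for the same reason no replicate could be left out. The counts of genes at least 2-fold higher and lower, 959 and 192, were within 1.5 times of these under TMM scaling (885 and 230), median-ratio scaling (890 and 227), a total without the 20 most abundant genes (959 and 191) and log2(RPKM + 0.1) differences (735 and 153). They were 1537 and 371 with at least 1 read over the pair, 347 and 81 with at least 50 reads, 1671 and 609 at 1.5-fold, 435 and 54 at 3-fold, and 191 and 50 as log2(RPKM + 1) differences. With the interval also on one side of 1 they were 693 and 124. The offset of 1 RPKM draws low genes together by construction: the B cell median was 1.12 in place of 2.20, the interferon gamma median 0.65 in place of 0.94, and 73 of 185 genes past 2-fold among those listed or named were then within it, without a change of sign. Under TMM scaling 6 of the 185 were within 2-fold. The adipocyte median, -1.93 over 2 genes, was -1.08 with that offset and -0.41 with at least 1 read. Depth limits the genes with under 50 reads, and the spread between mice cannot be had from pooled RNA.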

Other observations

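Long noncoding RNAs of imprinted loci, looked up after seeing the values, stood apart in the day 7 library after PhIP and DSS. H19, from the Igf2 locus on chromosome 7, was at 0 RPKM in the control, at 0.131, 0.174 and 0.0926 on days 1, 3 and 7 after DSS alone, and at 0.134, 0.0454 and 1.91 on those days after PhIP and DSS. It had 1 read on day 3 and 42 on day 7, 42.1-fold higher (interval 7.16 to 1703), while Igf2 itself was level with 12 and 13 reads. From the Dlk1 locus on chromosome 12, Meg3 was at 1.73 RPKM in the control, at 2.12, 1.71 and 1.46 on days 1, 3 and 7 after DSS alone, and at 0.604, 1.56 and 0.177 on those days after PhIP and DSS, 8.80-fold lower (interval 5.32 to 15.5), and Rian had 65 and 4 reads, 16.2-fold lower (interval 6.03 to 61.3). Dlk1, the protein-coding gene of that locus, which is expressed from the other parental chromosome, was 2.99-fold lower (interval 1.64 to 5.78). Meg3 and Rian were lower in this library than in any of the other 6, and H19 was higher.

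Squamous keratins of the anal junction were scarce in the pair. Krt13 had 35 reads on day 3 and 5 on day 7, and Krt5 had 0 on both days. Of the adipocyte list 2 genes could be tested and both were at least 2-fold lower (background 1.42%, or 4.91% with 10 to 49 reads). These were Car3 with 18 and 0 reads and Cidec, a lipid droplet protein, with 56 and 23. The summed level was 6.79 RPKM on day 3 and 2.47 RPKM on day 7, and Adipoq had 2 and 0 reads. Hoxd10, Hoxd11 and Hoxd13, which pattern the distal colon, were 1.81-fold higher (interval 1.46 to 2.26), 1.65-fold higher (interval 1.40 to 1.96) and 1.37-fold higher (interval 1.27 to 1.48). After DSS alone the same genes were 6.38-fold higher, 7.13-fold higher and 2.62-fold higher on day 7, from lower levels on day 3. Slc9a3, the sodium-proton exchanger NHE3, was 2.09-fold lower (interval 1.82 to 2.40), and 2.09-fold lower after DSS alone.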
